A study of Mus musculus with 28 samples.

Results

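The expression of 10 genes that mark astrocytes was followed through the brain of the young mouse: Gfap, Aqp4, Aldh1l1, Slc1a2, Slc1a3, Gja1, Gjb6, S100b, Agt and Itih3. They were taken from the array by gene symbol, 10 of 20660 symbols that the probes carry, and where several probes carried a symbol the one with the highest mean was used. The material was the brain of untreated, unmodified male C57BL/6J mice aged 3 weeks, studied by Transcriptome Tomography: each brain was frozen, cut from end to end along 1 axis, and runs of neighbouring sections were pooled into fractions. A coronal series of 12 fractions, a horizontal series of 6 and a sagittal series of 10 were measured on 28 arrays of 1 colour, with 1 array per fraction and 1 mouse per plane. The plane and the mouse therefore cannot be told apart, and no error given below is a spread between animals: the curves were tested against the scatter of single fractions around them, and the standard errors of differences between series come from the scatter of fractions around the series means. The label of coronal fraction 12 also names the fraction after it.

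Astrocytes are the glial cells that take up glutamate at synapses, buffer potassium and water, couple to each other through gap junctions, store glycogen and secrete proteins into the tissue. They are found in every part of the brain but are not alike everywhere: those of white matter, the glial limiting layers and the hindbrain carry more intermediate filament, and the Bergmann glia of the cerebellum form a type of their own. In a pooled piece of tissue, fewer cells of a type and less RNA per cell cannot be told apart.

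Every one of the 10 genes was well above background on all 28 arrays. All 30 genes of a wider astrocyte list, 6 of 6 neuronal and 5 of 5 oligodendrocyte genes passed the filter for testing. The axes were read from landmark genes. Hindbrain genes were highest in coronal fraction 1, cerebellar genes in fraction 3, thalamic genes in fraction 6, genes of cerebral cortex and striatum in fraction 8 and olfactory bulb genes in fraction 12, so the coronal series ran from the hindbrain forwards. Cortical genes were highest in horizontal fraction 1 and hypothalamic genes in horizontal fraction 6, and in the sagittal series ependymal genes were highest in fraction 5 and hypothalamic genes in fraction 6, near the midline.

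The upstream sequences of 4 of the genes are shown because Agt and Itih3 had the most alike profiles of the 10, while Slc1a2 and Slc1a3, both glutamate transporters, had unlike ones. They are the 250 bases before the start in RefSeq (GRCm38.p6), 5′ to 3′ on the gene's strand. Capitals mark matches, on either strand, to the following 5 motifs. The TATA box was searched as TATAAA. The CCAAT box was searched by those letters. The GC box was searched as GGGCGG, the STAT element as TTCNNNGAA, and the AP-1 element as TGANTCA. The table held 9 of the 10 genes, and the start it gives for Slc1a2 lies inside the span RefSeq gives that gene.
Agt, chr8:124569707-124569956, minus strand: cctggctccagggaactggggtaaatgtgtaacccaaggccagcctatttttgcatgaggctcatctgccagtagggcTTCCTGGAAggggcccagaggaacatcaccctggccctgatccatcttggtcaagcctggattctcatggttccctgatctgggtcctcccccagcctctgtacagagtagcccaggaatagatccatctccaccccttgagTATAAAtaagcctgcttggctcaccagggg
Itih3, chr14:30923588-30923837, minus strand: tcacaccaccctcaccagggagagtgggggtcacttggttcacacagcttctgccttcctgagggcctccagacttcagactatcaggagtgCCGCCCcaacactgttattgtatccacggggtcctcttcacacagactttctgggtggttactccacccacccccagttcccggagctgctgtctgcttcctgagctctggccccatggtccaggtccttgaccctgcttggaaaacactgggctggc
Slc1a2, chr2:102706188-102706437, plus strand: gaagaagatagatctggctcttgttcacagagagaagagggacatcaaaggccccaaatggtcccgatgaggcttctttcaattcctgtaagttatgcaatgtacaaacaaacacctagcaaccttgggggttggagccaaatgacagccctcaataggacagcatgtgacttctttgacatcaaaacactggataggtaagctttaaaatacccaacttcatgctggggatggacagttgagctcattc
Slc1a3, chr15:8710808-8711057, minus strand: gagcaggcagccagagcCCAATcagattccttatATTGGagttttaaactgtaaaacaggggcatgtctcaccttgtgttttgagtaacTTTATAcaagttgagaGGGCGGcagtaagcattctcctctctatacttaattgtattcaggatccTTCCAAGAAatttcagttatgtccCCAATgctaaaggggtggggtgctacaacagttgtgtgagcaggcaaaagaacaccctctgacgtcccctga
Agt held 1 TATA box, at bases -30 to -25 (-1 is the base before the start), and 1 STAT match at -172 to -164. Itih3 held 1 GC box and neither of those motifs. Slc1a3 held 3 CCAAT boxes, 1 GC box and 1 STAT match. Its 1 match to the TATA letters lay on the opposite strand, at -161 to -156, unlike that of Agt. No match to the 5 motifs was found in the window of Slc1a2. Of the 32851 windows in the table, 12.4% held the TATA box, 33.8% the CCAAT box, 32.7% the GC box, 7.0% the STAT element and 6.7% the AP-1 element. The letters are a description and say nothing of which factor acts there.

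Levels are given on a log2 scale on which the signal at the 75th percentile of an array is 0 and a difference of 1 is a factor of 2. Levels of different genes are not set against each other, because each probe has its own brightness. Each used probe was a single spot per array, except that of Gja1 with 10 spots. Among probes with at least 5 spots the median SD between spots of 1 array was 0.06 to 0.09, which is the error within an array only. Some arrays held many of the extreme levels. Coronal fraction 1 held the highest level of its series for 7 genes, and horizontal fraction 1 the lowest for 5 and the highest for 4. In sagittal fraction 9, 9 of the 10 genes had their lowest level of that series, all but Itih3, and the dim probes of the array were at their brightest, with a median of -5.03 against -7.80 to -5.38 on the other 27 arrays. Sagittal fraction 1 had the lowest 75th percentile of signal, 135 against up to 574 elsewhere. Sagittal ranges are therefore also given without fraction 9.

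The 10 genes did not share a profile. Along the coronal axis the level of Agt differed 22.8-fold between its highest and lowest fraction, Itih3 8.90-fold, Gfap 6.98-fold, S100b 5.31-fold and Aqp4 4.55-fold. Each of these genes was highest in fraction 1, so these ranges rest in part on that array. The next highest level was 3.63 in fraction 2 for Agt, against 4.36, and 4.42 in fraction 11 for Gfap, against 5.19. The other 5 stayed within 2.91-fold, with Slc1a2 at 2.91-fold, Slc1a3 at 2.21-fold, Gjb6 at 2.01-fold, Aldh1l1 at 1.98-fold and Gja1 at 1.78-fold. A curve along the coronal axis (limma F-test of a natural spline, Benjamini-Hochberg over 32364 probes, threshold 0.05) passed for 8 of the 10 genes, all but Slc1a3 and Gja1, where 33.7% of all tested probes passed. The horizontal curve passed for 5 of 10, Aqp4, Slc1a2, Slc1a3, Agt and Itih3, where 15.8% of all probes passed, and the sagittal curve for 1 of 10, Itih3, where 14.7% passed. The median fitted range of the 10 genes was 1.57 log2 units in the coronal series against 0.90 over all tested probes and 0.81 against 1.06 in the sagittal series. In the horizontal series it was again above that of all tested probes, which was 0.74. By observed range, highest minus lowest fraction, the medians of the 10 genes were 1.86, 1.20 and 1.30 against 1.11, 0.77 and 1.27 over the bright probes in the coronal, horizontal and sagittal series, so the sagittal median lay below or near that of the array depending on the measure.

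**Figure D1:**
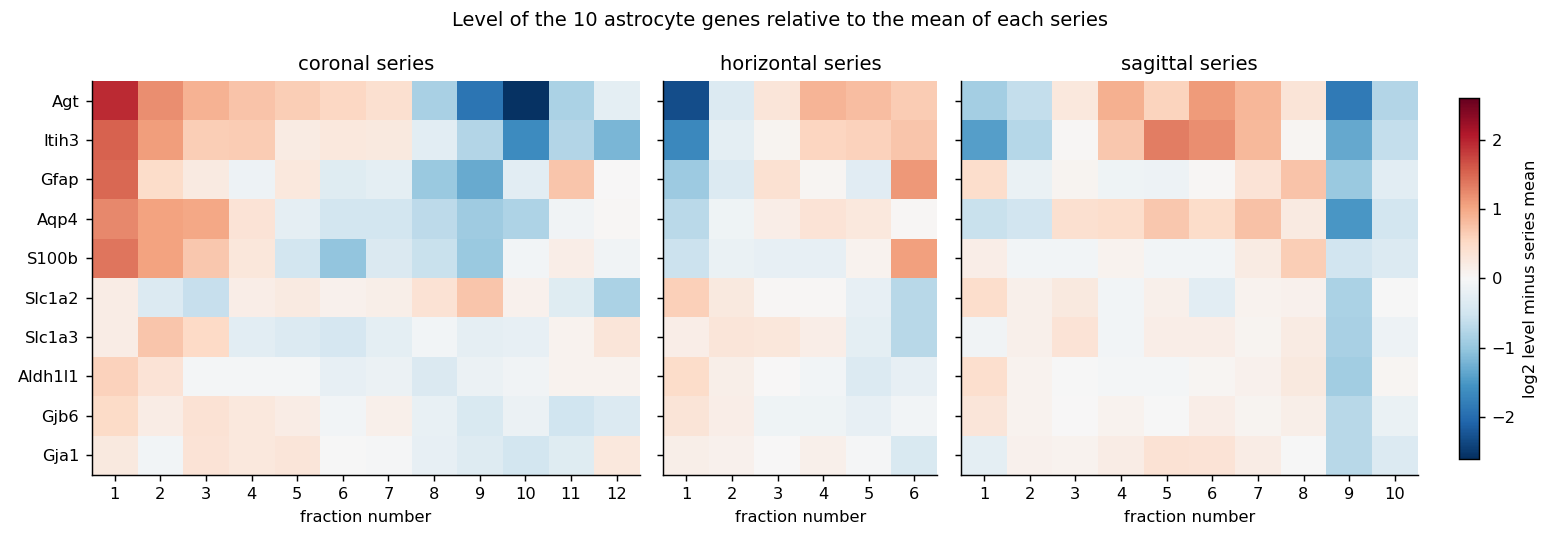
Level of the 10 genes in each of the 28 fractions, as log2 level minus the mean of the series, with fraction number along the horizontal axis of each panel and genes ordered by their mean range. Agt and Itih3 run from red in coronal fraction 1 to blue in coronal fraction 10, the bottom rows (Slc1a3, Aldh1l1, Gjb6, Gja1) stay pale, and sagittal fraction 9 is blue for all genes.

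The coronal calls shared a limit. The 12 coronal fractions lie on 3 slides, and with slide as an added term only Aqp4 and Itih3 of the 10 kept their call, and 241 of all probes (0.745%) passed. In that fit the range was taken over the spline part alone, without the steps between slides. It is therefore not comparable with the fitted range without slide. Of the 6 genes whose call was lost, the spline part spanned 4.69 log2 units for Agt, 2.75 for S100b and 2.21 for Gfap. It spanned 0.88 for Gjb6, 1.02 for Slc1a2 and 0.44 for Aldh1l1. The fitted ranges without slide were 2.84, 2.21, 1.85, 0.82, 1.30 and 0.79, in the same order. For Agt the spline part exceeded the observed coronal range of 4.51. Within the 8 fractions of 1 slide, fractions 3 to 10, the curve passed for 4 genes, Aqp4, Agt, Itih3 and Gja1, and for 12.9% of all probes. The horizontal count of 5 rested on single fractions: it was 0 without fraction 1, 3 or 4 (with 5, 6 and 6 genes at an unadjusted p under 0.05 by limma), 1 without fraction 6 and 2 without fraction 2. Of all probes, 6.84% passed without fraction 1, 4.13% without fraction 6 and 10.3% without fraction 2, and 0 passed without fraction 3 or 4, so the count of 0 in those 2 fits holds for the whole array. The sagittal count was 0 without fraction 1, 5 or 6 (2 genes each at an unadjusted p under 0.05), where 0, 8.0% and 6.24% of all probes passed, and 4 without fraction 9 or 10 (Agt, Aqp4, Gja1 and Itih3), fits in which 38.8% and 47.1% of all probes passed.

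Agt and Itih3, the secreted proteins, had the widest ranges of the 10 genes in each series over all its fractions. In the horizontal series that order rested on fraction 1. Without it the ranges were 2.76-fold for Gfap, 2.41-fold for S100b, 2.34-fold for Agt and 1.96-fold for Itih3. Agt encodes angiotensinogen, the precursor of the angiotensins, and Itih3 encodes a heavy chain of the inter-alpha-trypsin inhibitors, which bind hyaluronan. In the coronal series Agt ranged from -0.15 in fraction 10 to 4.36 in fraction 1, with a median of 2.89. It stood at 3.63 in fraction 2, between 2.84 and 3.33 in fractions 3 to 7, at 1.58 in fraction 8 and 0.52 in fraction 9, then at 1.59 in fraction 11 and 2.18 in fraction 12. Agt was thus high from the hindbrain to fraction 7, low in fractions 8 to 11 with its least in fraction 10, and intermediate in fraction 12 at the olfactory bulb end (adjusted p = 0.00800). The drop lies within 1 slide: fractions 3 and 10 of that slide differed 11.2-fold. The range of Agt exceeded that of 99.3% of the 21524 probes that were well above background on all arrays.

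Along the dorsoventral axis Agt was at -0.10 in fraction 1 and 1.86 in fraction 2, and between 2.52 and 3.09 in fractions 3 to 6, with a median of 2.69 (adjusted p = 0.0194, a 9.14-fold range). Without fraction 1 the range was 2.34-fold and the call was lost (adjusted p = 0.0699). The dorsal fraction, where cortical genes were highest, thus held the lowest Agt of that series under all 4 scalings tried. In the sagittal series Agt went from 1.29 in fraction 1 to 3.29 in fraction 6 and back to 1.41 in fraction 10, with 0.33 in fraction 9 and a median of 2.48. Its sagittal curve did not pass (adjusted p = 0.0698). Leaving out fraction 9 gave an adjusted p of 0.00430 and a 3.99-fold range, and leaving out fraction 10 an adjusted p of 0.0101.

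Itih3 followed the same course. Its coronal level ran from 5.47 in fraction 1 to 2.32 in fraction 10, with a median of 4.17 (adjusted p = 0.00127), and unlike Agt it stayed low at the olfactory bulb end, with 2.75 in fraction 12. Horizontally it was lowest in fraction 1, at 2.12, and highest in fraction 6, at 4.51, with a median of 4.10 (adjusted p = 0.0219, a 5.24-fold range). That call was lost in 4 of the 6 fits without 1 fraction, and without fraction 1 the range was 1.96-fold (adjusted p = 0.107). Sagittally it was the only one of the 10 genes with a called curve (adjusted p = 0.0187), from 2.19 in fraction 1 to 4.94 in fraction 5, with a median of 3.66. Without sagittal fraction 1 that call was lost (adjusted p = 0.118), as it was without fraction 5 (0.0588) or fraction 6 (0.0615), while without fraction 9 it was kept. Over the 28 fractions, each series centred on its mean, Agt and Itih3 had a Pearson r of 0.92 (0.91, 0.99 and 0.92 within the coronal, horizontal and sagittal series), the highest of the 45 pairs among the 10 genes.

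**Figure D2:**
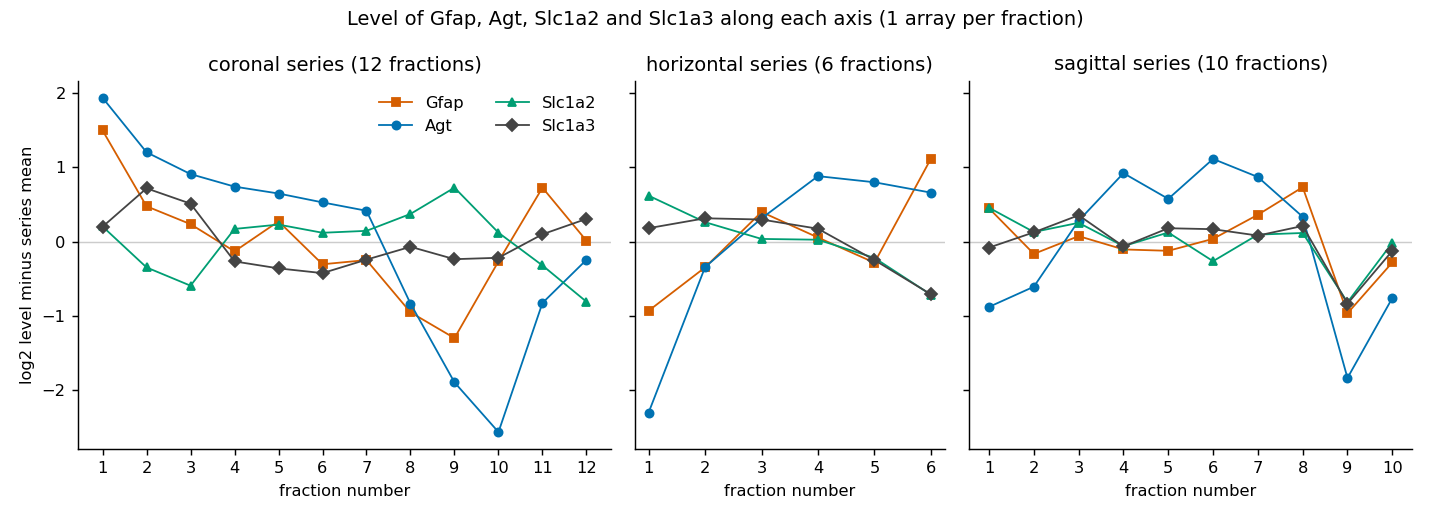
Level of Gfap, Agt, Slc1a2 and Slc1a3 in each fraction, as log2 level minus the mean of the series, against fraction number (1 array per point, no error bar because each fraction was measured once). Agt falls from 4.36 in coronal fraction 1 to -0.15 in coronal fraction 10 before centring, while Slc1a3 stays within 5.62 and 4.47 in that series.

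Oligodendrocyte genes had profiles like those of these 2 genes, and so did the genes of several regions. All 5 of 5 (Mbp, Mog, Mag, Cnp and Mobp) had a called coronal curve, 4 of 5 a horizontal and 4 of 5 a sagittal one, beside 33.7%, 15.8% and 14.7% of all probes. Their summed level, in multiples of the 75th percentile signal, ran from 89.5 to 702 in the coronal series, 63.0 to 495 in the horizontal and 38.7 to 547 in the sagittal series. Mbp, which encodes a protein of compact myelin, was at 7.63 in coronal fraction 1 and 3.25 in fraction 12. Mobp, another myelin protein, was highest in the same coronal fraction, at 7.67. None of the 5 markers was below background in any fraction. Over the 28 fractions the mean profile of the oligodendrocyte list had an r of 0.87 with Itih3, 0.75 with Agt, 0.62 with Aqp4 and 0.33 with Gfap. The hindbrain, cerebellar and thalamic lists had an r of 0.77, 0.73 and 0.70 with Itih3. With Agt their values were 0.69, 0.69 and 0.67. The cortical list had -0.56 with Itih3 and -0.65 with Agt, and the hypothalamic, striatal and olfactory bulb lists lay between -0.15 and 0.21. The ependymal list (Foxj1, Ccdc153, Tmem212 and Rsph1) had an r of 0.63 with Itih3 and 0.52 with Agt, and its summed level ran from 1.20 to 7.29 in the coronal series. What part those cells have in the profiles of Agt and Itih3 was not tested.

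Aqp4 encodes the water channel of astrocyte end-feet. Its coronal level was 4.15 in fraction 1, 3.94 in fraction 2 and 3.90 in fraction 3, fell to 1.97 in fraction 9 and stood at 2.92 in fraction 12, with a median of 2.73. The coronal curve of Aqp4 had the smallest adjusted p of the 10 genes, 0.000433, and held in each of the other 23 fits, those without 1 fraction included. Its 3 highest fractions were those of hindbrain and cerebellum, on slides 1 and 2. Horizontally Aqp4 was lowest in fraction 1, at 2.16, and highest in fraction 4, at 3.22 (median 2.97, adjusted p = 0.0388), a call that was lost in 5 of the 6 fits that left out 1 fraction. Sagittally it ran from 1.48 in fraction 9 to 3.74 in fraction 7 (median 3.31, adjusted p = 0.125), and without fraction 9 the adjusted p was 0.00984 over a 2.51-fold range. The other Aqp4 probe, with an r of 0.94 with the probe used, had a called sagittal curve over all fractions (adjusted p = 0.0220), and its coronal high point was fraction 3. Aqp4 had an r of 0.84 with Agt and 0.82 with Itih3 over the 28 fractions.

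Gfap, the intermediate filament protein, and S100b, a calcium-binding protein, had profiles that were alike over the 28 fractions. Gfap was at 5.19 in coronal fraction 1, lowest in fraction 9 at 2.39, and up at 4.42 in fraction 11, with a median of 3.63. It was thus high at the hindbrain end and again in fraction 11, and low in fractions 8 and 9 (adjusted p = 0.0332). That call is not firm: it was lost in 10 of 24 other fits, among them the fit without coronal fraction 1 (adjusted p = 0.100), and the 2 other Gfap probes gave adjusted p = 0.0589 and 0.120, with an r of 0.91 and 0.92 with the probe used. Horizontally Gfap was lowest in fraction 1, at 2.53, and highest in fraction 6, at 4.58, with 3.86 in fraction 3 (median 3.35, adjusted p = 0.219). Under scaling by the array median fraction 3 was highest instead. Sagittally Gfap lay between 2.64 in fraction 9 and 4.34 in fraction 8, with a median of 3.57 and no called curve (adjusted p = 0.462). Without fraction 9 its sagittal range was 2.02-fold.

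S100b ran from 7.86 in coronal fraction 1 down to 5.45 in fraction 6, with 6.64 in fraction 11 and a median of 6.39 (adjusted p = 0.00316). Its low point under array median or quantile scaling was fraction 9. It was lowest in horizontal fraction 1, at 5.88, and highest in horizontal fraction 6, at 7.50 (median 6.25, adjusted p = 0.0641), and in the sagittal series it lay between 6.04 in fraction 9 and 7.17 in fraction 8 (median 6.46, adjusted p = 0.485), a range of 1.98-fold without fraction 9. Gfap and S100b had an r of 0.82 over the 28 fractions, and both were highest in coronal fraction 1, horizontal fraction 6 and sagittal fraction 8. In the coronal series alone their r was 0.80, below that of S100b with Aqp4 (0.91) and of Gfap with Aldh1l1 (0.85). In a list of 7 genes known to rise in reactive astrocytes (Lcn2, Serpina3n, Vim, Cd44, C3, Timp1 and Osmr), the coronal curve passed for 4, Vim, Cd44, C3 and Timp1, the horizontal for 2 and the sagittal for 2, where 33.7%, 15.8% and 14.7% of all probes passed. The mean profile of that list had an r of 0.71 with Gfap and 0.75 with S100b, and its summed level was 7.83 to 17.9 in the coronal series. Its part in the profile of Gfap was not tested.

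The 2 glutamate transporters differed from each other. Slc1a2 encodes GLT-1, the main transporter that clears glutamate in the forebrain, and Slc1a3 encodes GLAST, which is abundant in Bergmann glia. In the coronal series Slc1a2 was highest in fraction 9, at 5.06, and low in fractions 2, 3, 11 and 12, with 3.73 in fraction 3 and 3.52 in fraction 12, while fraction 1 stood at 4.53 (median 4.46, adjusted p = 0.0389). Slc1a3 was highest in fraction 2, at 5.62, with 5.41 in fraction 3, 4.47 in fraction 6 and 5.21 in fraction 12 (median 4.76, adjusted p = 0.0892). The fractions where one was at its highest were thus ones where the other was low or middling, and their coronal r was -0.71. The coronal call of Slc1a2 was lost in 15 of 24 other fits, 7 of them without 1 fraction, and its other probes gave adjusted p = 0.0546 and 0.183 with an r of 0.91 and 0.93 with the probe used. Without fraction 1 the coronal curve of Slc1a3 passed (adjusted p = 0.0146).

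Along the horizontal series the transporters ran together. In the horizontal series Slc1a2 went from 5.11 in fraction 1 to 3.78 in fraction 6 (median 4.52, adjusted p = 0.0464), and Slc1a3 from 4.91 in fraction 2 to 3.88 in fraction 6 (median 4.77, adjusted p = 0.0332). Both were lowest in the ventral fraction under all 4 scalings tried, and their horizontal r was 0.85. Each call was lost when single fractions were left out, in 6 of 6 such fits for Slc1a2 and 5 of 6 for Slc1a3. Neither had a called sagittal curve: Slc1a2 lay between 3.70 in fraction 9 and 4.97 in fraction 1 (median 4.62, adjusted p = 0.488), and Slc1a3 between 3.81 in fraction 9 and 5.00 in fraction 3 (median 4.75, adjusted p = 0.553). Without fraction 9 their sagittal ranges were 1.65-fold and 1.40-fold, and their r over the 9 other sagittal fractions was 0.03, against 0.75 with it.

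In the coronal series Slc1a3 was highest where the Bergmann glia marker Gdf10, a growth factor of the TGF-beta family, was highest. Gdf10 was at 3.83 in coronal fraction 2 and -1.32 in fraction 9. The mean profile of its list of 3 genes was highest in coronal fraction 1 (1.41), horizontal fraction 3 (0.53) and sagittal fraction 8 (0.69). Slc1a3 was instead highest in coronal fraction 2, horizontal fraction 2 and sagittal fraction 3. The 3 Bergmann glia genes, Gdf10, Hopx and Fabp7, all had called coronal curves, 1 had a called horizontal curve and 0 a sagittal one (beside 33.7%, 15.8% and 14.7% of all probes), and their mean profile had an r of 0.67 with Slc1a3, 0.77 with S100b, 0.76 with Aqp4 and -0.49 with Slc1a2. Fabp7 was highest in fraction 12, at 7.44, so the list is not particular to the cerebellum. The summed level of the 3 genes ran from 7.38 to 181 in the coronal series. Both genes taken as telencephalic astrocyte markers, Mfge8 and Lhx2, had called coronal curves. Mfge8, a secreted glycoprotein, was highest in fraction 9, at 7.03, and lowest in fraction 1, at 5.76, and Lhx2, a transcription factor of the forebrain, was at 3.74 in fraction 10 and -1.80 in fraction 2. Their mean profile had an r of 0.47 with Slc1a2 and of -0.65, -0.70 and -0.73 with Agt, Itih3 and Aqp4. What part Bergmann glia and telencephalic astrocytes have in these profiles was not tested.

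Gja1 and Gjb6, which encode connexin 43 and connexin 30 of astrocyte gap junctions, had the smallest ranges of the 10 genes, averaged over the 3 series. Gja1 lay between 0.61 in coronal fraction 10 and 1.44 in fraction 3 (median 1.05, adjusted p = 0.0501), a range wider than that of 27.9% of bright probes. Its coronal curve passed in 7 of 22 other fits, 3 of them without 1 fraction. Gja1 lay between 0.45 and 1.00 in the horizontal series (adjusted p = 0.230) and between -0.17 in fraction 9 and 0.93 in fraction 5 of the sagittal series (adjusted p = 0.135, or 0.0373 without fraction 9). Gjb6 was highest in coronal fraction 1, at 5.17, and lowest in fraction 11, at 4.17 (median 4.71, adjusted p = 0.0124), a called decline towards the front of the brain. Gjb6 lost that call with slide as an added term (adjusted p = 0.292), where the spline part alone spanned 0.88 log2 units. Its horizontal levels were 4.32 to 4.86 (adjusted p = 0.162) and its sagittal levels 3.63 to 4.66 (adjusted p = 0.439), or 4.17 to 4.66 without fraction 9.

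Aldh1l1, the folate enzyme often used as a general astrocyte marker, was nearly as even. It was highest in coronal fraction 1, at 5.45, and lowest in fraction 8, at 4.47 (median 4.80, adjusted p = 0.0183), and from fraction 3 to fraction 10 it stayed within 1.26-fold. The call rested on the hindbrain end, since without fraction 1 the adjusted p was 0.118. Horizontally Aldh1l1 lay between 4.55 and 5.38, highest in fraction 1 (adjusted p = 0.0987), and sagittally between 3.89 in fraction 9 and 5.22 in fraction 1 (adjusted p = 0.638), 1.41-fold without fraction 9.

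**Figure D3:**
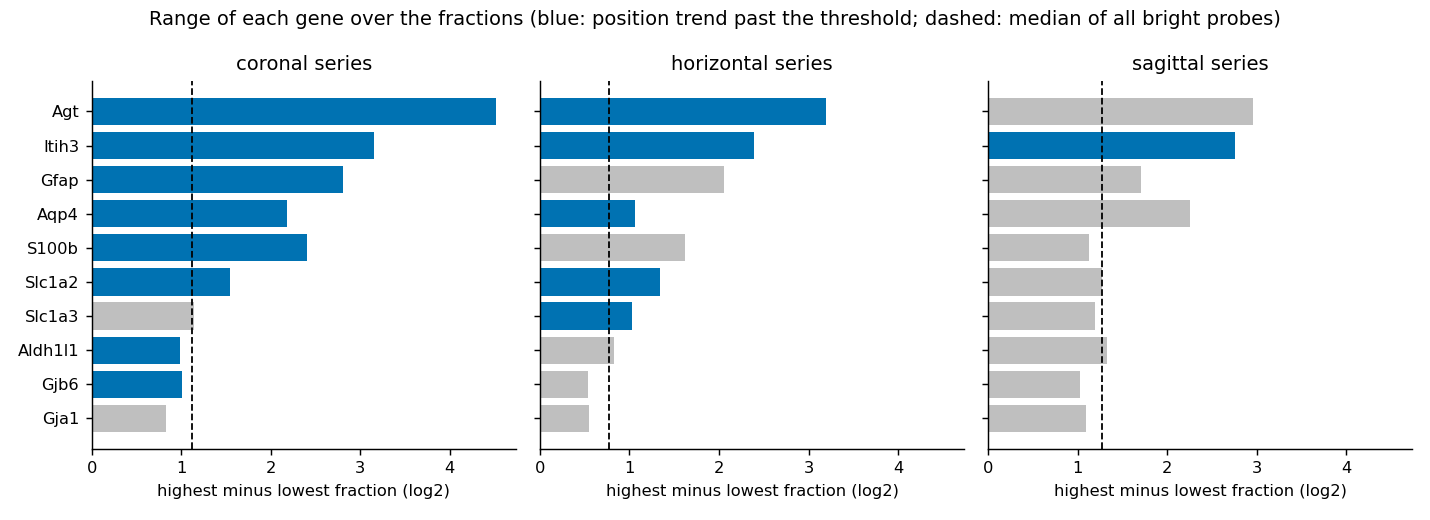
Difference between the highest and the lowest fraction of each gene, in log2 units, in the 3 series, with bars in blue where the curve along the axis passed the threshold and in grey where it did not. The dashed line is the median range of the 21524 bright probes (1.11, 0.77 and 1.27), and Agt has the longest bar in each panel. In the horizontal panel it does so through fraction 1 (1.23 without it, against 1.47 for Gfap and 1.27 for S100b). In the sagittal panel it does so through fraction 9 (2.00 without it, against 2.76 for Itih3).

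Set against Slc1a3 on the same array, a measure in which a constant factor per array cancels, Agt, Gfap and Slc1a2 gave separate pictures. The log2 ratio of Agt to Slc1a3 went from -0.74 in coronal fraction 1 to -4.83 in fraction 10 (adjusted p = 0.0143), from -4.88 in horizontal fraction 1 to -1.02 in fraction 6 (adjusted p = 0.00710), and from -3.27 in sagittal fraction 1 through -1.48 in fraction 4 to -3.11 in fraction 10 (adjusted p = 0.0652, or 0.0124 without fraction 9). Horizontally that ratio went up at every step, although from fraction 4 to fraction 6 Agt itself fell from 3.09 to 2.86. Slc1a3 fell further there, from 4.77 to 3.88. Without horizontal fraction 1 the lowest value of the ratio was -3.05, and the ratio's curve still passed. With slide as an added term the coronal adjusted p was 0.150. The spline part alone then spanned 4.77 log2 units, more than the observed range of 4.09. It is not comparable with the fitted range of 2.50 without that term. The ratio of Gfap to Slc1a3 lay between -2.27 in coronal fraction 9 and 0.09 in fraction 1, without a called curve (adjusted p = 0.391). It went from -2.24 in horizontal fraction 1 to 0.70 in fraction 6 (adjusted p = 0.0359), a call lost in 4 of the 6 fits without 1 fraction, and its sagittal values of -1.35 to -0.51 gave no called curve (adjusted p = 0.301, or 0.257 without fraction 9, which holds neither extreme).

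The ratio of Slc1a2 to Slc1a3 was low in coronal fractions 2, 3, 11 and 12, with -1.68 in fraction 3 and -1.69 in fraction 12, was -0.57 in fraction 1, and was highest in fraction 9, at 0.40 (adjusted p = 0.0450). That is a 4.24-fold change of one transporter relative to the other along 1 axis, and 8 of the 12 fits without 1 fraction took its adjusted p above the threshold, to 0.138 at most, as did quantile normalization (0.0556), slide as an added term (0.851) and the fit on fractions 3 to 10 alone (0.0662). The fitted log2 range was 1.91 under quantile normalization and 1.60 on fractions 3 to 10 alone, against 1.87 over all fractions. With slide as a term the spline part alone spanned 1.45. In the horizontal series the ratio stayed between -0.36 and 0.34 (adjusted p = 0.133) and in the sagittal series between -0.56 and 0.41, with or without fraction 9 (adjusted p = 0.365 and 0.370). Of the 9 genes other than Slc1a3, the ratio had a called curve for 4 in the coronal series (Aqp4, Slc1a2, Agt and Itih3), where 32.2% of all probes had one. It had one for 7 in the horizontal series, where 60.9% of all probes did, and for Itih3 alone in the sagittal series (adjusted p = 0.0335), where 8.15% did. That sagittal call was lost in 6 of the 10 fits without 1 fraction, in which at most 3 of all probes passed, and with slide as an added term (adjusted p = 0.0729), where 0 of all probes passed. Slc1a3 itself had a called horizontal curve, and without horizontal fraction 6 the ratio passed for 3 of the 9 genes and 13.5% of all probes. With slide as an added term the coronal ratio passed for 0 of the 9 genes (3 at an unadjusted p under 0.05 by limma) and 0.232% of all probes.

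**Figure D4:**
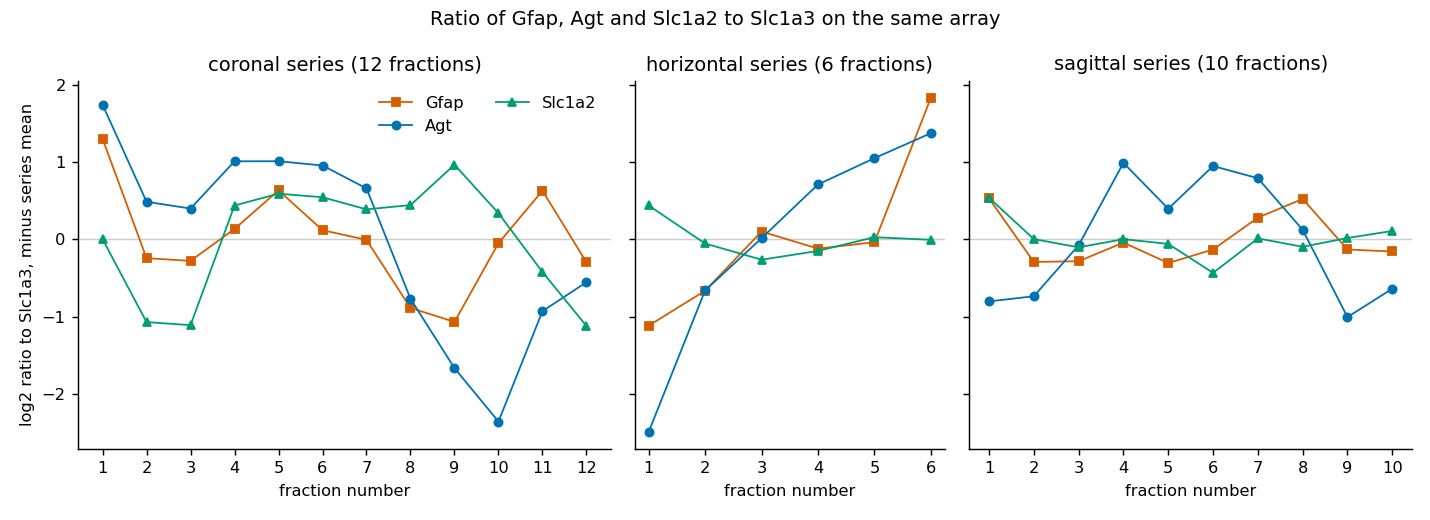
Log2 ratio of Gfap, Agt and Slc1a2 to Slc1a3 on the same array, minus the mean of the series, against fraction number (1 array per point). The Agt ratio climbs at every step of the horizontal series, from -4.88 to -1.02 before centring. From horizontal fraction 4 to fraction 6 the level of Agt falls and that of Slc1a3 falls further. The Slc1a2 ratio is high in the middle of the coronal series and low in fractions 2, 3, 11 and 12.

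The genes whose profiles were most like those 4, by Pearson r over the 28 centred fractions among all named symbols tested, were listed without regard to function. For Agt they were Litaf (r = 0.94), Cda (0.93) and Tmed10 (0.93), and for Gfap Stx4a (0.89), Mt2 (0.88) and Pgpep1 (0.87). For Slc1a2 they were Jph3 (0.91), Ttbk1 (0.89) and Asphd2 (0.88), all highest in coronal fraction 9, horizontal fraction 1 and sagittal fraction 1, as Slc1a2 was. The sagittal high point of Slc1a2 was fraction 3 under array median, quantile or normexp scaling, and fraction 5 by its other probes. Its horizontal high point was fraction 2 under the array median. For Slc1a3 they were Arhgef7 (0.93), Dgkd (0.91) and Brpf1 (0.91). Fractions of a series share a brain and, in part, a slide, so these values describe the 28 arrays.

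A wider list of 30 astrocyte genes, all tested, held both kinds of profile. The coronal curve passed for 19 of 30, the horizontal for 4 and the sagittal for 3, where 33.7%, 15.8% and 14.7% of all probes passed, with median fitted ranges of 0.98, 0.51 and 0.83 log2 units against 0.90, 0.74 and 1.06 over all tested probes. Among the 19, 15 had an r above 0 with Agt in the coronal series and 4 below, and 3 had an r above 0 with Slc1a2. No share over all called probes is given beside these counts, so they describe the list only. Kcnj10, the potassium channel of astrocytes, ran with Agt, from 6.98 in coronal fraction 1 to 4.42 in fraction 10 (r = 0.95, adjusted p = 0.00853), and had a called sagittal curve too (r = 0.96 with Agt). The bicarbonate transporter Slc4a4 did so as well, from 3.46 in sagittal fraction 5 to 1.00 in fraction 9 (adjusted p = 0.0157), with 1.01 in fraction 1 the lowest level when fraction 9 is left out. The third called sagittal curve, that of Ppp1r3c, a glycogen-targeting subunit of protein phosphatase, had its high point at the side, with 3.95 in fraction 1 and 2.04 in fraction 4 (adjusted p = 0.0208). Slc6a11, the GABA transporter GAT-3, had the widest fitted range of the 30, 2.34, and was at 3.49 in fraction 12 and 0.48 in fraction 10 (adjusted p = 0.0463). In the horizontal series Slc6a11 was lowest in fraction 1, at 0.32 (adjusted p = 0.0288). Gldc, the glycine decarboxylase, was highest in fraction 12, at 3.05, and lowest in fraction 4, at 0.85 (adjusted p = 0.000662). Gpr37l1, a receptor of glial cells, was at 4.57 in fraction 1 and 2.22 in fraction 8 (adjusted p = 0.000502). Dio2, the deiodinase that activates thyroid hormone, ran the other way: it was highest in coronal fraction 10, at 4.17, and in horizontal fraction 1, at 3.97 (coronal r with Agt -0.79).

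Sagittal fractions at equal distance from the ends were set side by side. They were not shown to be mirror pairs, and the mean profile of the olfactory bulb list was -1.68 in fraction 3 and 1.66 in fraction 8, and that of the cerebellar list -4.86 in fraction 1 and -0.86 in fraction 10. The level of Agt differed by 0.05 between fractions 3 and 8 and by 0.05 between fractions 4 and 7, by 0.12 between 1 and 10, by 0.54 between 5 and 6 and by 1.23 between 2 and 9. Leaving out the pair with fraction 9, the mean absolute difference was 0.19 for Agt, 0.27 for Itih3, 0.05 for Gja1 and 0.51 for Gfap, beside sagittal ranges without fraction 9 of 2.00, 2.76, 0.73 and 1.02. Within those pairs the levels of Agt and Gja1 differed by a smaller share of their range than that of Gfap.

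Between the 3 brains, the mean level of the 10 genes did not differ past the threshold in any contrast (limma over 28 fractions, 0 of 10 called in each, with 0, 2 and 0 at an unadjusted p under 0.05). Over all probes 3.47% were called for horizontal minus coronal, 0.139% for sagittal minus coronal and 0.0154% for sagittal minus horizontal. The lowest adjusted p was that of Gja1 in sagittal minus coronal, a difference of -0.53 (SE 0.13, means 0.56 and 1.08, adjusted p = 0.0989), and Gjb6 had one of -0.33 (SE 0.13, means 4.35 and 4.68, adjusted p = 0.297). The order of the 3 brains was coronal, horizontal, sagittal for both connexins, and no neighbours in that order differed past the threshold. With slide as a block the sagittal minus coronal difference of Gjb6 turned to 0.02 (adjusted p = 0.979). With fraction number as a replicate block, which does not pair the series, that contrast was called for both connexins. The differences were -0.53 for Gja1 (adjusted p = 0.0263) and -0.42 for Gjb6 (adjusted p = 0.0291). Differences for the other 8 genes had unadjusted p above 0.05. These values compare 3 mice, 1 per plane.

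Markers of other cell types were followed for the same fractions, with 33.7%, 15.8% and 14.7% of all probes called in the coronal, horizontal and sagittal series as the background of each count. Of 6 neuronal genes 3 had a called coronal curve, 2 a horizontal and 0 a sagittal one, with a summed level of 443 to 634 in the coronal series, and their mean profile had an r of -0.52 with Gfap and 0.40 with Slc1a2. The endothelial list (1, 0 and 0 of 4 called) had an r of 0.80 with Aldh1l1 and 0.71 with Gjb6, with a coronal sum of 42.4 to 74.0. Both r values include sagittal fraction 9, where the mean profile of that list (-0.68) and both genes were lowest of their series. The microglial list (4, 0 and 1 of 5 called) had an r of -0.61 with Agt and -0.69 with Itih3, with a coronal sum of 45.2 to 133. The choroid plexus list (0, 2 and 2 of 4 called) had an r of 0.51 with Itih3, and the meningeal list (3, 0 and 0 of 4 called) an r of 0.59 with Aldh1l1. The 2 genes of olfactory ensheathing cells (2, 2 and 0 called) had an r of -0.64 with Itih3. Their parts in the astrocyte profiles were not tested.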

How the data were processed

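Total RNA of 28 brain fractions was hybridised to 28 Agilent arrays of 1 colour, 1 per fraction, on 4 slides. The authors scanned and quantified them with Agilent Feature Extraction, and per the file headers the processed signal is a background-corrected intensity. The deposited value table holds log2 values of 44721 probes, and 99.8% of them lie within 0.01 of log2 of the processed signal plus a constant per array. Fraction widths were not used, because the sources differ on the thickness of a fraction.

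From the deposited intensity, control spots and 108 to 176 outlier spots per array were left out, spots of a probe were averaged, and log2 of the signal was taken minus log2 of the array's 75th percentile. No spot was saturated. A probe was tested if the scanner software called it well above background somewhere in the coronal, the horizontal and the sagittal series (32426 of 55681) and if outlier removal left it a value on every array, which gave 32364. Probes were named through their accessions in RefSeq, 27235 of 55681 (48.9%). limma 3.58.1 in R 4.3.3 fitted a natural spline of the fraction number with 3 (coronal), 2 (horizontal) or 3 (sagittal) degrees of freedom, and its F-test was adjusted by Benjamini-Hochberg over all tested probes. The same fit was made on the log2 ratio to Slc1a3, and the series were contrasted over all 28 fractions. Scripts were tested on simulated data.

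The genes, the lists and the tests were chosen with earlier results of these data known. Genes named are the 10 astrocyte genes, the 3 symbols nearest to Gfap, Agt, Slc1a2 and Slc1a3 by r, and up to 3 genes per list and series with the largest called fitted range. Short lists are also given by all their genes, and the oligodendrocyte list is used as 5 genes because 1 further gene is not reported here. Alternatives were scaling by the array median, quantile normalization, normexp (with an offset of 50, on the median spot signal), another spline, another filter, another probe, slide as a term or block, 1 slide alone, and each fraction left out. With 1 array per fraction, the number of arrays limits the precision. The Y-linked Ddx3y was well above background on 28 of 28 arrays and Xist on 0, in mice labelled male.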

Additional observations from a re-analysis of the deposited data

Results flagged for a closer look

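For each gene in the horizontal and the sagittal series, 20 sets of fractions, the gap between the highest or lowest fraction and the nearest other value was compared with the whole range (Dixon's ratio, at its 95% critical value). For independent sets chance gives about 1 of 20. The 20 sets share 16 arrays, so that count does not apply here, and 3 of the 4 found are the same array, sagittal fraction 9. Gja1 was far below the others in horizontal fraction 6, at 0.45 against 0.81 for the next lowest (ratio 0.663). In sagittal fraction 9, Slc1a3 was at 3.81 against 4.52 (ratio 0.597), Gjb6 at 3.63 against 4.17 (ratio 0.529) and Aldh1l1 at 3.89 against 4.72 (ratio 0.627). Under quantile normalization the 4 ratios were 0.596, 0.119, 0.238 and 0.714, and under scaling by the array median 0.560, 0.641, 0.647 and 0.801, in the same order. Under quantile normalization 3 of the 4 (Gja1, Slc1a3 and Gjb6) and under the array median 1 (Gja1) fell below the critical value. Fractions are positions along an axis and not replicates.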

How the results depend on the processing

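Scaling to the median of each array moved arrays of a series against each other by up to 0.52 log2 units (coronal), 1.06 (horizontal) and 1.51 (sagittal). Of 30 profiles (10 genes in 3 series) the highest fraction stayed the same in 18 under the array median, 24 under quantile normalization and 24 under normexp, and the lowest in 23, 28 and 29. The causes of the changes below were not tested, and each array is 1 measurement.

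Called curves among all probes, and among the 10 astrocyte genes in brackets where that count moved by over 1.5 times, were as follows. Coronal counts were 17330 with no filter on dim probes, 241 (2) with slide as an added term and 4164 (4) within fractions 3 to 10. Horizontal counts were 19347 (8) under the array median, 8987 under normexp, 1 (0, with 7 genes at an unadjusted p under 0.05 by limma) with 1 spline degree of freedom fewer, and (2) with no filter. Sagittal counts were 337 (0, with 4 at an unadjusted p under 0.05) under the array median, 2631 under quantile normalization, 14270 (4) under normexp, (2) with 1 degree of freedom fewer, 3088 with 1 more, 19184 (2) with no filter, (2) with only probes well above background on all arrays, 2520 with slide as a term, and 0 (0) within fractions 5 to 10, where 2330 probes and 1 gene had an unadjusted p under 0.05. Without sagittal fractions 1 and 9 together, an alternative chosen after seeing the data, the count was 938.

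For the ratio to Slc1a3, slide as a term gave 75 called probes and 0 of 9 genes in the coronal series (3 at an unadjusted p under 0.05). In the horizontal series the counts were 12982 under quantile normalization, 29594 under normexp and 0 (0) with 1 degree of freedom fewer (9696 probes and 5 genes at an unadjusted p under 0.05). In the sagittal series they were 12994 (2) under normexp, (2) with 1 degree of freedom fewer, 0 (0) with slide as a term (8353 and 3 at an unadjusted p under 0.05), 0 (0) within fractions 5 to 10 (2283 and 2), and 1654 without fractions 1 and 9.

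Leaving out each fraction in turn gave 7938 to 11145 called probes and 6 to 8 genes for the coronal curve, 0 to 5754 and 0 to 4 for the horizontal (0 without fraction 3 or 4), and 0 to 15244 and 0 to 4 for the sagittal (0 without fraction 1, 15244 without fraction 10 and 12543 without fraction 9). For the ratio the ranges were 6541 to 19843 and 3 to 6 (highest without coronal fraction 1), 4359 to 20701 and 3 to 7 (lowest without horizontal fraction 6), and 0 to 9536 and 0 to 3 (0 without sagittal fraction 3, 6 or 7, highest without 9). For the contrasts they were 87 to 2843 (horizontal minus coronal), 16 to 147 (sagittal minus coronal) and 1 to 1319 (sagittal minus horizontal, highest without sagittal fraction 9), with 0 of the 10 genes called throughout by limma and at least 0, 2 and 0 at an unadjusted p under 0.05.

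Horizontal minus coronal had 2559 called probes under the array median, 405 under normexp and 312 with slide as a block. Sagittal minus coronal had 11 under the array median, 25 under quantile normalization, 17 with no filter and 1433 with slide as a block, under which the difference of Gjb6 turned to 0.02 (adjusted p = 0.979). Sagittal minus horizontal had 0 under the array median (3045 at an unadjusted p under 0.05 by limma), 1 with no filter and 764 with slide as a block. Fraction numbers do not pair the series: over 22 same-numbered pairs the correlation of deviations lay between -0.44 and 0.61. With fraction number as a replicate block 376 probes and 2 of the 10 genes were called in sagittal minus coronal and 2 probes in sagittal minus horizontal. A second probe of Slc1a3 was planned and not run, because 1 probe carries that symbol.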
